A study of Mus musculus with 12 samples.

Results

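Transcript levels of 10 genes of fatty acid synthesis were examined by RNA sequencing in mouse muscle. The genes were taken by symbol: each row of the raw count table whose Ensembl identifier maps to Acly, Acaca, Fasn, Elovl6, Elovl5, Scd1, Scd2, Thrsp, Srebf1 or Mlxipl in the GENCODE annotation of GRCm38. All 10 were found among the 47729 genes of the table, and all 10 were among the 14194 genes that passed the filter on low counts. The 12 libraries came from male C57BL/6-background mice aged 5 months and fell into 4 groups of 3: NRF2-KO with treadmill exercise, NRF2-KO sedentary, wild type (WT, C57BL/6) with treadmill exercise, and WT sedentary. NRF2-KO mice lack the transcription factor NRF2, which is encoded by Nfe2l2 and switches on genes of antioxidant defence. The labels do not say how NRF2 was removed, in which cells, which muscle was taken or how long the mice ran. They also do not say whether the 3 samples of a group were separate animals, and the spread that p-values measure here may therefore be technical.

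Cytosolic fatty acid synthesis turns citrate into long-chain fatty acids. Acly splits citrate to acetyl-CoA, Acaca carboxylates it to malonyl-CoA, and Fasn joins these units into palmitate, which Elovl6 lengthens and Scd1 and Scd2 desaturate. In mice the pathway is most active in liver and fat tissue. Muscle tissue also holds intramuscular adipocytes, and in whole tissue fewer cells of a type and less RNA per cell cannot be told apart. Srebf1 encodes the SREBP-1 factors and Mlxipl encodes ChREBP, the factors that carry insulin and glucose signals to the genes of these enzymes, and Thrsp (Spot 14) is a small nuclear protein that accompanies lipogenesis.

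Of the 6 genes that were high in the same library, the upstream sequences of 4 are printed here, without Acaca and Scd1. Each is the 250 bases before the RefSeq start, on GRCm38.p6 written 5′ to 3′ on the strand of the gene: Fasn chr11:120824548-120824797 (minus strand), Acly chr11:100528001-100528250 (minus), Elovl6 chr3:129532136-129532385 (plus) and Thrsp chr7:97417551-97417800 (minus). RefSeq starts can differ from those of GENCODE. Capitals mark CCAAT (either strand, CCAAT or ATTGG) and GC box letters (GGGCGG or CCGCCC).
Fasn: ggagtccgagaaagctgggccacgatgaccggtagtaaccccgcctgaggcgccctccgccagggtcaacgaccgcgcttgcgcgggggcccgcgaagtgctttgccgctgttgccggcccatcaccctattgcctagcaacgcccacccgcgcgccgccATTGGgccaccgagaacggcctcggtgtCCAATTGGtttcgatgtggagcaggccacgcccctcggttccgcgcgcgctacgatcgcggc
Acly: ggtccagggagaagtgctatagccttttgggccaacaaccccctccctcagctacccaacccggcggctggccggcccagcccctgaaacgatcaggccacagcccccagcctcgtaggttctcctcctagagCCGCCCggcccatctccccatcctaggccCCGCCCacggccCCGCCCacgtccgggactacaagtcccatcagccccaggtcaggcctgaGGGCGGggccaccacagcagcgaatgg
Elovl6: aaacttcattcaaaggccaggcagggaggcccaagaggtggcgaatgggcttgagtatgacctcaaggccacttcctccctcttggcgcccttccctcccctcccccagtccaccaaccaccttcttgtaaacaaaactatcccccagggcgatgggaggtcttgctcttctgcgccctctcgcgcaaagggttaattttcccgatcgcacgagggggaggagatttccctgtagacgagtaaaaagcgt
Thrsp: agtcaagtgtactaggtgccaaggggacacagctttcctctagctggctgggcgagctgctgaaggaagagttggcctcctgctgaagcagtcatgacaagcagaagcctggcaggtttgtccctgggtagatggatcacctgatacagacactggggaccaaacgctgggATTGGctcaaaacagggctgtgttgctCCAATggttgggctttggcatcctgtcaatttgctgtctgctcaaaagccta
Fasn held 3 CCAAT matches, of which those at 62 to 58 and 59 to 55 bases before the start overlap each other, and the remaining match lay at 90 to 86. Thrsp held 2, at 79 to 75 and 52 to 48, while Acly held 4 GC boxes, the nearest at 27 to 22 bases. The E-box CACGTG, to which ChREBP and its partner Mlx can bind, was searched as well, and Elovl6 held none of the 3 motifs on either strand. RefSeq starts were listed for 8 of the 10 genes, with 3 for Srebf1 and 2 for Mlxipl; no entry was used for Scd1 and Scd2. The window of Acaca lay inside the gene as GENCODE places it, not before its first base, and so did some windows of Srebf1 and Mlxipl. The windows of Thrsp and Elovl6, and the last base of that of Elovl5, reached into their genes. For Thrsp this part held both CCAAT matches. Among these 8 genes, CCAAT was present in 5 (33.8% of 32817 mouse promoters of this length hold it), the GC box in 3 (32.7%) and the E-box in 2, Elovl5 and Mlxipl (6.02%). A gene counts here if any of its windows holds the letters, whereas the shares are per single promoter, so genes with several starts have more chances. A match is a run of letters and not a binding site, and its absence says only that the letters are not in this window.

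Every library matched its genotype label. Nfe2l2 had 54 to 84 counts in the 6 KO libraries and 830 to 1275 in the 6 WT libraries, and its log2 fold change averaged over exercise was -3.90 (adjusted p = 5.36e-13). Adjusted p-values are from the quasi-likelihood test of edgeR, by Benjamini-Hochberg over all genes tested. Total counts per library ranged from 21232040 to 29990968. Lanes 3 and 4 each held 5 libraries of both genotypes, whereas WT sedentary replicate 1 ran on lane 7 and WT treadmill replicate 1 on lane 8, with no KO library on either lane. The muscle fibre markers Acta1, Ckm, Myh4 and Myh7 had at least 616 counts in each library, so the tissue label held. Levels are given as CPM, read counts scaled to the TMM-adjusted library size.

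Scd1, the main stearoyl-CoA desaturase of fat tissue, had by far the most transcript per length. Divided by exon length, its mean over the 12 libraries was 89.5 ± 51.0 CPM per kb (SD), followed by Thrsp at 14.3 ± 6.1, Srebf1 at 8.52 ± 1.51, Mlxipl at 6.92 ± 0.71 and Scd2 at 5.39 ± 1.08 CPM per kb. Acly, Fasn and Elovl5 came next with 4.38 ± 2.78, 3.95 ± 2.95 and 2.93 ± 0.35 CPM per kb. Acaca and Elovl6 were lowest at 0.529 ± 0.221 and 0.486 ± 0.517 CPM per kb. Between neighbours in this order the ranges of the 12 libraries overlapped except between Scd1 and Thrsp and between Elovl5 and Acaca.

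Before the comparisons, 1 library must be set apart. KO sedentary replicate 2 carried the highest level of Acly, Acaca, Fasn, Elovl6, Scd1 and Thrsp among all 12 libraries, by a wide margin over each of the other 11. Against the mean log2 CPM of the others it was 6.22-fold higher in Elovl6, 4.27-fold in Fasn, 3.66-fold in Acly, 3.25-fold in Scd1, 2.60-fold in Acaca and 2.58-fold in Thrsp. Ranked by this difference among the 14194 genes, Elovl6 was at rank 1, Fasn 8, Acly 11, Scd1 15, Acaca 27 and Thrsp 28. These 6 genes were among the 100 genes with the largest positive difference in that library, while in each of the other 11 libraries 0 of the 10 genes were. The remaining 4 did not share the pattern: Scd2 was 1.38-fold (rank 843), Elovl5 1.26-fold (rank 1465), Mlxipl 0.927-fold and Srebf1 0.905-fold of the others. This library lay on lane 3 with 4 others, and its Nfe2l2 count was 54. It was singled out after its values were seen, and values without it are given beside the main results that use it.

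**Figure D1:**
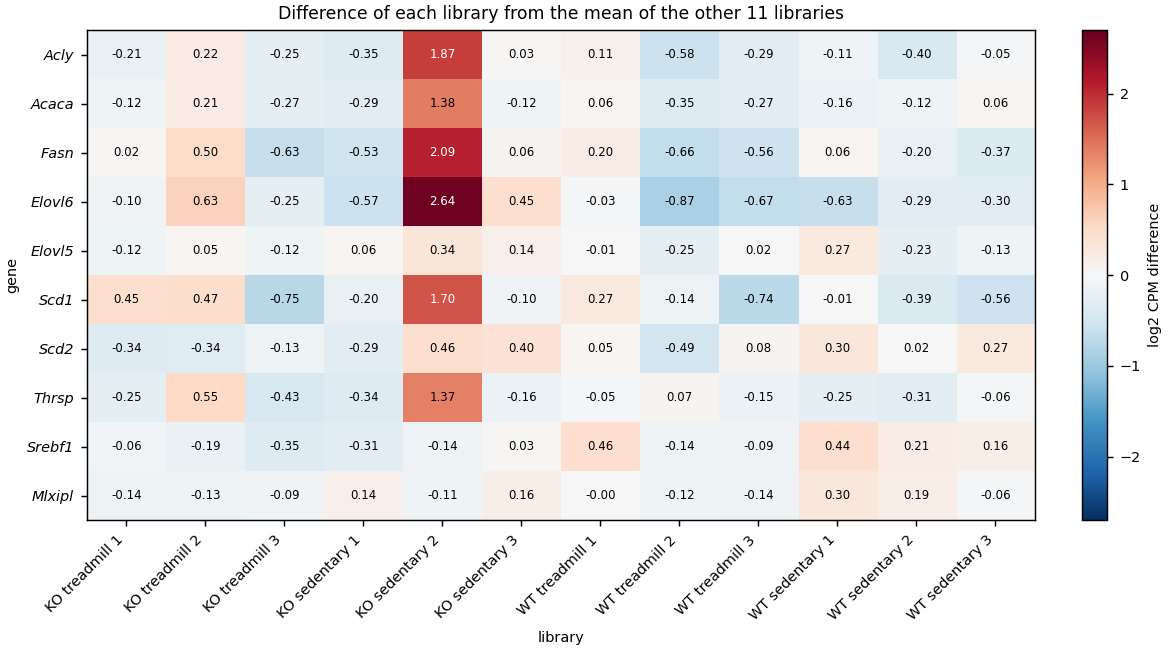
Log2 CPM of each gene (rows) in each library (columns) minus the mean log2 CPM of the other 11 libraries, with the value written in each cell. The column of KO sedentary replicate 2 reaches 2.64 for Elovl6 and 2.09 for Fasn, while Srebf1 and Mlxipl are below 0 there.

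The first steps of the pathway were at similar levels in 11 libraries. Acly, ATP citrate lyase (chromosome 11, 100476353 to 100528000, minus strand), had 18.3, 24.0 and 17.9 CPM in KO treadmill muscle and 16.7, 68.9 and 21.4 CPM in KO sedentary muscle. In WT it had 22.5, 14.4 and 17.4 CPM with treadmill and 19.5, 16.2 and 20.3 CPM in sedentary muscle, so apart from replicate 2 of the KO sedentary group the groups overlapped. Acaca, acetyl-CoA carboxylase alpha (chromosome 11, 84129672 to 84401651, plus strand), had 7.96, 9.85 and 7.20 CPM in KO treadmill and 7.12, 20.7 and 7.94 CPM in KO sedentary muscle. WT muscle held 8.92, 6.85 and 7.19 CPM with treadmill and 7.73, 7.95 and 8.89 CPM when sedentary. Without the high library, the largest Acaca value of the other 11 was 1.44 times the smallest, whereas with it the ratio was 3.02. Of the 50-base stretches of Acaca transcripts, 30.4% also occur in another gene, mostly in the locus Gm5182, so its counts are less certain than those of Acly and Fasn, which share none.

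Fasn, the multi-domain synthase that makes palmitate (chromosome 11, 120805846 to 120824547, minus strand), had 38.1, 51.6 and 25.2 CPM in KO treadmill muscle and 26.9, 142 and 39.2 CPM in KO sedentary muscle. Its WT values were 42.7, 24.7 and 26.4 CPM with treadmill and 39.1, 33.2 and 29.8 CPM in sedentary muscle. All groups overlapped, and the 11 libraries other than KO sedentary replicate 2 spanned a 2.09-fold range.

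Elovl6, the elongase that takes palmitate to stearate (chromosome 3, 129532355 to 129638495, plus strand), had 2.30, 3.70 and 2.08 CPM in KO treadmill muscle and 1.68, 13.4 and 3.29 CPM in KO sedentary muscle. WT muscle had 2.40, 1.38 and 1.57 CPM with treadmill and 1.62, 2.03 and 2.01 CPM when sedentary. It is the least counted of the 10, with 28 to 338 counts per library, so counting error weighs most on it. Elovl5, an elongase of polyunsaturated fatty acids (chromosome 9, 77917364 to 77984519, plus strand), was even: 9.48, 10.6 and 9.47 CPM in KO treadmill, 10.6, 12.7 and 11.2 CPM in KO sedentary, 10.1, 8.73 and 10.3 CPM in WT treadmill, and 12.1, 8.82 and 9.45 CPM in WT sedentary muscle. Its highest value was 1.45 times its lowest.

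The paired desaturase genes lie near each other on chromosome 19 but differed in pattern. Scd1 (44394455 to 44407879, minus strand) had 528, 532 and 246 CPM in KO treadmill and 348, 1167 and 371 CPM in KO sedentary muscle, against 471, 361 and 248 CPM in WT treadmill and 393, 309 and 278 CPM in WT sedentary muscle. Even outside the high library its values spanned a 2.16-fold range within which no group stood apart. Scd2 (44293674 to 44306864, plus strand), the isoform of brain and many other tissues, had 23.3, 23.3 and 26.6 CPM in KO treadmill and 24.1, 38.7 and 37.2 CPM in KO sedentary muscle. In WT it had 29.8, 21.2 and 30.5 CPM with treadmill and 35.1, 29.2 and 34.3 CPM in sedentary muscle. Here KO sedentary replicate 2 was matched by replicate 3 of its group. The correlation of log2 CPM between Scd1 and Scd2 over the 12 libraries was 0.19, and -0.31 without that library. Of the 50-base stretches, 4.56% in Scd1 and 3.97% in Scd2 also occur in other genes, mainly in Scd paralogs.

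Thrsp (chromosome 7, 97412938 to 97417730, minus strand) had 25.2, 41.8 and 22.5 CPM in KO treadmill and 23.7, 70.7 and 26.8 CPM in KO sedentary muscle. WT values were closer together, at 28.6, 31.0 and 26.9 CPM with treadmill and 25.2, 24.3 and 28.5 CPM when sedentary.

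The genes of the transcription factors were not high in KO sedentary replicate 2. Srebf1 (chromosome 11, 60199089 to 60222581, minus strand) had 45.4, 42.0 and 37.8 CPM in KO treadmill and 38.7, 43.2 and 48.1 CPM in KO sedentary muscle, against 63.3, 43.3 and 44.7 CPM in WT treadmill and 62.8, 54.0 and 52.4 CPM in WT sedentary muscle. The highest KO value lay below all 3 sedentary WT values but above 2 of the treadmill ones. Mlxipl (chromosome 5, 135089890 to 135138382, plus strand) was the steadiest gene, with a 1.33-fold range. It had 34.9, 35.1 and 36.1 CPM in KO treadmill, 41.7, 35.6 and 42.3 CPM in KO sedentary, 38.0, 35.3 and 34.9 CPM in WT treadmill, and 46.3, 42.9 and 36.7 CPM in WT sedentary muscle. The kit does not mark strand, and Srebf1 exons overlap those of Rai1 on the opposite strand; Rai1 had 311 to 667 counts per library, so a small part of the Srebf1 reads could be either gene's.

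**Figure D2:**
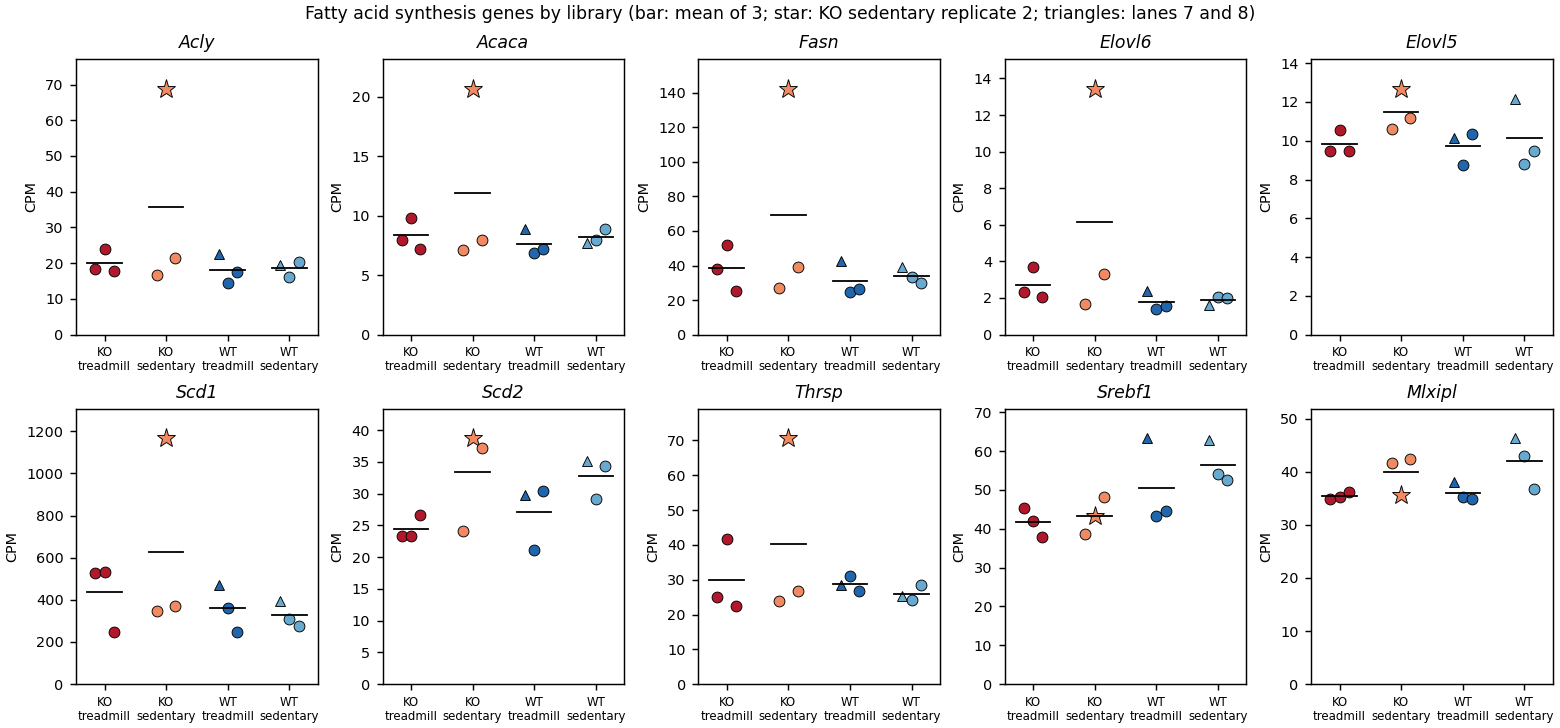
CPM of each gene in the 12 libraries, on axes that start at 0, with KO treadmill, KO sedentary, WT treadmill and WT sedentary from left to right; the bar is the mean of 3 libraries. The star, KO sedentary replicate 2, stands far above all other points for Acly (68.9), Acaca (20.7), Fasn (142), Elovl6 (13.4), Scd1 (1167) and Thrsp (70.7), and triangles mark the WT libraries on lanes 7 and 8.

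In sedentary muscle the genotype comparison asks whether loss of NRF2 alters these transcripts at rest. The 6 genes named above averaged higher in KO sedentary than in WT sedentary muscle, with 1 of 3 KO libraries far above the other KO and all WT libraries. Fasn averaged 69.5 ± 63.5 CPM in KO and 34.03 ± 4.71 CPM in WT muscle (SD, n = 3 each), and Elovl6 averaged 6.14 ± 6.38 CPM in KO and 1.89 ± 0.23 CPM in WT muscle. None of the 10 genes passed the adjusted threshold of 0.05 (background, 0.19% of all genes tested). Log2 fold changes were 1.71 for Elovl6 (SE 0.55, adjusted p = 0.438), 1.03 for Fasn (SE 0.46, adjusted p = 0.637), 0.94 for Scd1, 0.93 for Acly, 0.64 for Thrsp and 0.54 for Acaca. Srebf1 was lower, at 43.3 ± 4.7 CPM in KO and 56.4 ± 5.6 CPM in WT muscle (log2 fold change -0.38, SE 0.14, adjusted p = 0.521). It was the single gene of the 10 whose KO and WT libraries did not overlap, and 12% of all genes had no overlap in either direction, so 1 of 10 is near the background. Scd2 (0.02), Elovl5 (0.18) and Mlxipl (-0.08) were near 0. The median of the 10 was 0.59 with all libraries and -0.020 without KO sedentary replicate 2, against 0.01 over all genes.

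Without KO sedentary replicate 2 these differences were near 0, except that of Elovl6. In that fit the log2 fold changes were -0.04 for Fasn, 0.03 for Acly, -0.12 for Acaca, 0.14 for Scd1, -0.04 for Thrsp and 0.42 for Elovl6, and that of Srebf1 stayed at -0.38. The unadjusted p of 5 genes was below 0.05 with all 12 libraries, and 7.65% of all genes had such a p. When the filter on low counts was dropped, 7 of the 10 genes passed (Fasn, Acaca, Acly, Elovl6, Scd1, Thrsp and Srebf1), beside 1.23% of the 26350 genes of that fit. With the same library also left out 0 of the 10 passed in this comparison, beside 0.59% of 26107 genes.

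**Figure D3:**
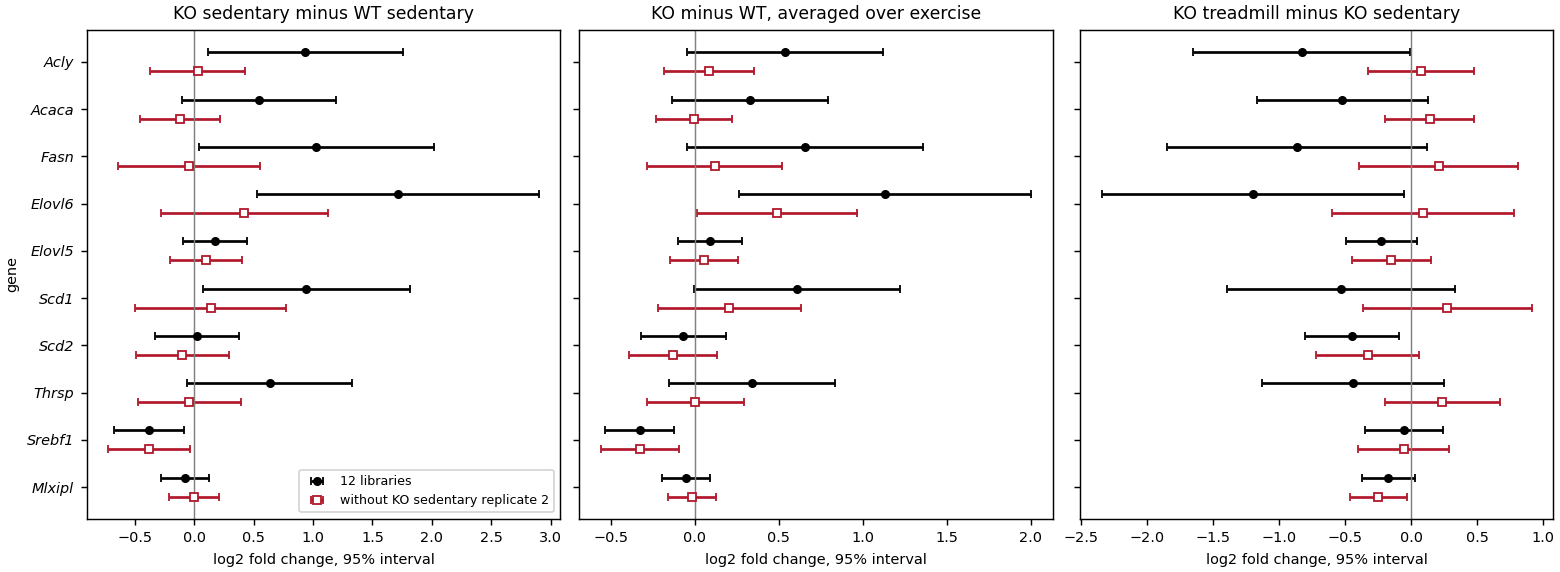
Log2 fold change (x axis) with its 95% interval for each gene in 3 comparisons, from the fit to 12 libraries (black circles) and without KO sedentary replicate 2 (red squares). Fasn, Acly, Acaca and Thrsp lie near 0 once that library is left out of the sedentary genotype comparison, at -0.04, 0.03, -0.12 and -0.04, and Srebf1 is at -0.38 in both fits.

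Under exercise the same genes did not separate the genotypes. KO treadmill and WT treadmill libraries overlapped for all 10 genes (13% of all genes had no overlap), and none passed (background, 0.162%). An unadjusted p below 0.05 was found for 0 of the 10 and for 6.72% of all genes. Without the filter on low counts 0 of the 10 passed as well (background, 0.786%, and 0.689% with KO sedentary replicate 2 left out). Log2 fold changes ran from -0.28 for Srebf1 (SE 0.14, adjusted p = 0.767) to 0.55 for Elovl6 (SE 0.60, adjusted p = 0.897). Fasn was at 0.28, Scd1 at 0.27, Acly at 0.14, Acaca at 0.11 and Thrsp at 0.05. With all libraries the 95% interval of Fasn ran from -0.71 to 1.28 on the log2 scale, which includes the 1.03 of sedentary muscle. KO sedentary replicate 2 is not in this contrast but enters the estimate of spread that the groups share. Without it Fasn was at 0.28 with SE 0.25 here, and at -0.04 in sedentary muscle. The median of the 10 was 0.08, against 0.01 over all genes.

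Averaged over exercise, again none of the 10 passed (background, 0.69%), and 2 had an unadjusted p below 0.05 (12.4% of all genes). Srebf1 had the smallest p of the 10, with a log2 fold change of -0.33 (SE 0.10, unadjusted p = 0.00425, adjusted p = 0.171, edgeR's quasi-likelihood test). Its KO values ran from 37.8 to 48.1 CPM and its WT values from 43.3 to 63.3 CPM. The 2 highest WT values were the libraries of lanes 7 and 8; in the fit without these libraries the log2 fold change was -0.19 (adjusted p = 0.245), and with lane as a term it was also -0.19 (adjusted p = 0.230). On lanes 3 and 4 alone WT Srebf1 averaged 48.6 CPM. Without the filter on low counts Srebf1 passed, both with all libraries (-0.34, adjusted p = 0.000244) and without KO sedentary replicate 2 (-0.34, adjusted p = 0.00257). These 2 fits kept the libraries of lanes 7 and 8, and their prior degrees of freedom were infinite, so a gene's own spread was not used. In the unfiltered fits 6 of the 10 passed with all libraries (background, 2.15%) and 1 without that library (background, 1.5%). Elovl6 had 1.13 (SE 0.41, adjusted p = 0.272) and 0.49 without that library, and Fasn had 0.66 and 0.12.

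Treadmill exercise was compared with sedentary muscle within each genotype and averaged. No gene of the 14194 passed in any of these comparisons (background, 0%); an unadjusted p below 0.05 was found for 308 genes in WT (2.17%), 534 in KO (3.76%) and 589 in the average (4.15%), and for 1, 3 and 2 of the 10 genes. In WT muscle the 10 genes lay between -0.27 for Scd2 and 0.15 for Thrsp on the log2 scale. Mlxipl was at -0.22 (SE 0.09, unadjusted p = 0.0340, adjusted p = 0.999), the single gene of the 10 with an unadjusted p below 0.05. In KO muscle all 10 log2 fold changes were negative, whereas 49.9% of all genes were above 0. Those of the 10 ran from -1.20 for Elovl6 to -0.05 for Srebf1, with Fasn at -0.86, Acly at -0.83, Scd1 at -0.53, Acaca at -0.52 and Thrsp at -0.44. The high library belongs to the sedentary side of this contrast, and without it 6 of these turned positive: Scd1 0.28, Thrsp 0.24, Fasn 0.21, Acaca 0.14, Elovl6 0.09 and Acly 0.07.

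With all libraries 8 of the 10 genes were below 0 in both genotypes, all but Scd1 and Thrsp. The share of all genes below 0 in both was not computed. Without KO sedentary replicate 2, Fasn, Acaca, Elovl6 and Acly were above 0 in KO. Of the 8, Scd2 and Mlxipl had an unadjusted p below 0.05 in the average. Both were lower with treadmill in each of the 3 same-numbered pairs of WT libraries. They were picked by p in these same libraries, so the pairs are no separate support. Scd2 averaged 24.4 ± 1.9 CPM in KO treadmill and 33.4 ± 8.1 CPM in KO sedentary muscle, and 27.1 ± 5.2 CPM in WT treadmill and 32.9 ± 3.2 CPM in WT sedentary muscle. Its log2 fold change averaged over genotype was -0.36 (SE 0.12, unadjusted p = 0.00805, adjusted p = 0.971), and -0.30 without KO sedentary replicate 2. That of Mlxipl was -0.20 (SE 0.07, unadjusted p = 0.0104, adjusted p = 0.971), and -0.23 without that library. Elovl5 was the single gene whose KO treadmill libraries (9.47 to 10.57 CPM) did not overlap the KO sedentary ones (10.62 to 12.69 CPM), by a narrow gap; 12.5% of all genes had no overlap in either direction, so 1 of 10 is near the background. The difference between the treadmill effects of KO and WT muscle passed for no gene of the 14194 (background, 0%; unadjusted p below 0.05 for 270 genes, 1.9%, and for 0 of the 10), nor for any of the 14378 genes tested without KO sedentary replicate 2. Without the filter on low counts 7 of the 10 passed for treadmill in KO (background, 0.528%), 4 averaged over genotype (0.345%), 5 for this difference (0.258%) and 0 in WT (0.125%). With KO sedentary replicate 2 also left out 0 of the 10 passed in these 4 comparisons (background, 0.237%, 0.245%, 0.138% and 0.119%).

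Across the 12 libraries the enzymes of palmitate synthesis varied together. Log2 CPM of Acaca and Acly correlated at 0.98, of Fasn and Acly at 0.96 and of Fasn and Acaca at 0.96, as a description over libraries that share lanes and groups. Without KO sedentary replicate 2 these were 0.85, 0.81 and 0.81 over 11 libraries. Fasn followed Elovl6 (0.95, and 0.77 without it) and Scd1 (0.93 and 0.80) likewise, and Thrsp less closely once the library was left out (0.88 and 0.52). Srebf1 was not part of this pattern over the 12 libraries, where its correlation with Fasn was 0.07. Without that library it was 0.45, near the 0.52 of Thrsp.

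The genes most like Fasn among 12135 genes with a mean of at least 1 CPM were Slc25a1, the mitochondrial citrate carrier (r = 0.95, and 0.78 without KO sedentary replicate 2), Agpat2, an acyltransferase of triglyceride synthesis (0.93 and 0.75), Pygl, Ccnd2 and Sfxn1. Those most like Scd1 were H2-Q10 (0.96 and 0.90), Pde3b, a cAMP phosphodiesterase of adipocytes (0.95 and 0.93), Sfxn1, Prkar2b and Pparg, the adipocyte nuclear receptor (0.92 and 0.79). Scd2 had other companions, among them Tmem132a (0.91 and 0.90), Rab11fip5, Slc4a3 and Inpp5j, none of which is among those of Fasn or Scd1. These rankings used all 12 libraries, KO sedentary replicate 2 among them, and were not repeated without it.

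Adipocyte markers were high in the same library. The summed level of the 15 adipocyte markers was 874 CPM in KO sedentary replicate 2 and 409 to 602 CPM in the other 11, and that of the 4 defining markers Adipoq, Plin1, Cidec and Lep was 106 CPM there and 28.4 to 67.9 CPM elsewhere. Of the 14 markers that passed the filter, 12 were above the mean of the other libraries and 8 were above it by more than 1 log2 unit; the median difference was 1.16 on the log2 scale, against 0.01 over all genes. Pck1, which feeds glycerol synthesis in fat, was 5.35-fold higher, and the adipocyte receptor Adrb3 and the lipid droplet protein Cidea were 4.60-fold and 4.46-fold higher. Adipoq, the adipocyte hormone adiponectin, was 2.48-fold and Plin1 2.55-fold higher. Lep, the hormone leptin, was at 0.952-fold and Plin4 at 0.780-fold, and Ucp1 had 0 counts in all libraries.

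Relative to Adipoq, Fasn, Elovl6 and Scd1 were also highest in that library. The ratio of Fasn to Adipoq CPM was 2.15 in KO sedentary replicate 2 and 0.626 to 1.80 in the others, and that of Elovl6 to Adipoq was 0.203 there and at most 0.151 elsewhere. For Acaca (0.312), Acly (1.04) and Thrsp (1.07) the ratio lay inside the range of the others, and for Scd1 it was 17.6, just above the highest other value of 17.1. With the adipocyte sum as a covariate the sedentary genotype difference was 0.02 for Fasn, 0.10 for Scd1 and 0.63 for Elovl6 on the log2 scale; the marker sum and the library cannot be told apart here, and their part in the result was not tested.

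Over the 12 libraries Scd1 had the closest relation of the 10 to the adipocyte sum (Pearson r = 0.89, permutation p = 0.000600, adjusted over 20 relations 0.0120; Spearman rho = 0.76, permutation p = 0.00554, adjusted 0.0732). Without KO sedentary replicate 2 and KO treadmill replicate 3, the 2 libraries farthest from the median sum, r was 0.62 (permutation p = 0.0556, adjusted 0.996), so the relation no longer passed and rests in part on them. Without KO sedentary replicate 2 alone r was 0.71 (permutation p = 0.0159, adjusted 0.318). On lanes 3 and 4 alone, which hold both KO sedentary replicate 2 and KO treadmill replicate 3, r was 0.90 (adjusted permutation p = 0.0314). For Thrsp r was 0.85 (permutation p = 0.00193, adjusted 0.0193; Spearman rho 0.75, permutation p = 0.00732, adjusted 0.0732), and 0.45 without those 2 libraries, or 0.55 without KO sedentary replicate 2 alone (adjusted permutation p = 0.457). Fasn had r = 0.81 (permutation p = 0.00943, adjusted 0.0629; Spearman rho 0.45, permutation p = 0.146, adjusted 0.694) and 0.25 without them, or 0.39 without KO sedentary replicate 2 alone (adjusted permutation p = 0.774). For Scd2 (0.19), Srebf1 (-0.01) and Mlxipl (-0.28) no relation was detected. The 4 defining markers are a small part of the adipocyte sum, with a mean of 55.0 CPM against 538 CPM for the whole. The relation to these 4 markers alone was not computed, so the sum need not track adipocyte content. None of the 10 relations with myelinating Schwann cell markers passed.

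**Figure D4:**
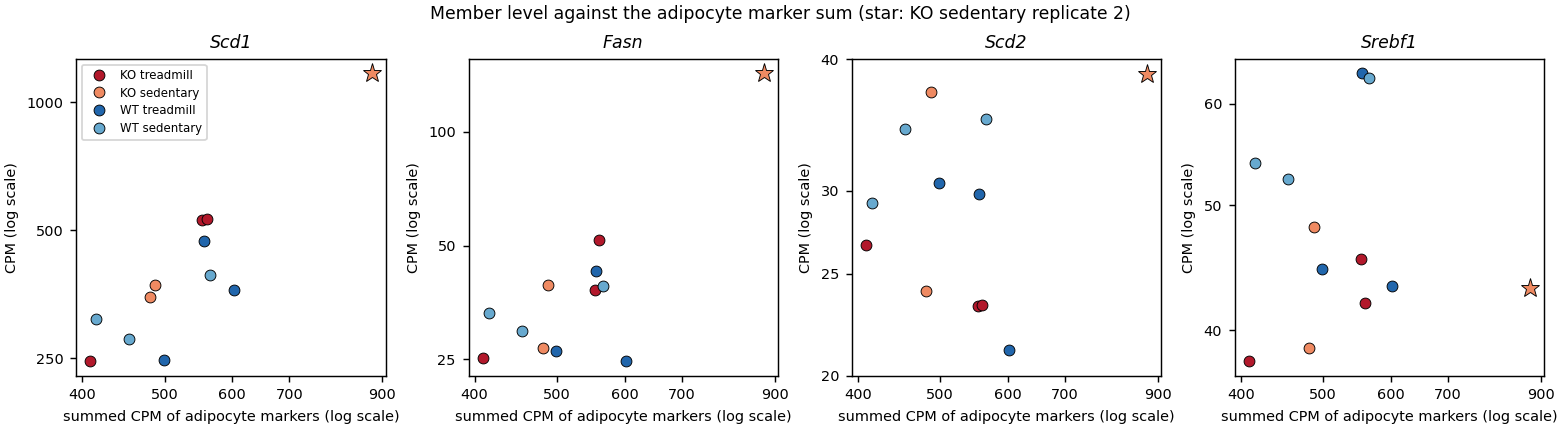
CPM of 4 genes (y axis, log scale) against the summed CPM of the adipocyte markers (x axis, log scale) in the 12 libraries, coloured by group, with a star for KO sedentary replicate 2 at 874 CPM. Scd1 climbs with the marker sum, Fasn does so mainly through the starred library, and Scd2 and Srebf1 do not.

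Neighbouring pathways and cell types were described by 9 gene lists, none of which had a gene past the threshold in any of the 7 comparisons of the fit to all 12 libraries, nor in the 3 genotype comparisons without KO sedentary replicate 2. Among 7 genes of NADPH and citrate supply, the median log2 fold change averaged over exercise was 0.0032, and -0.14 without KO sedentary replicate 2. Me1, malic enzyme, which makes NADPH and is a known NRF2 target, had 188, 190 and 170 CPM in KO treadmill, 172, 183 and 174 CPM in KO sedentary, 182, 218 and 219 CPM in WT treadmill, and 171, 219 and 210 CPM in WT sedentary muscle. Its log2 fold change was -0.18 (SE 0.07, adjusted p = 0.322). The low WT values, 182 and 171 CPM, were those of lanes 8 and 7, and without these libraries it was -0.27 (adjusted p = 0.0151), past the threshold. Idh1, another NADPH source, was at -0.11. Slc25a1 had 24.1 CPM in KO sedentary replicate 2 and 4.93 to 9.05 CPM in the others.

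Regulators of SREBP, LXR and ChREBP had 12 of 18 genes below 0 in the averaged genotype comparison, with a median of -0.08 against 0.01 over all genes. Of all genes, 53.0% were above 0 in that comparison. Mid1ip1, a Thrsp relative that activates acetyl-CoA carboxylase, had 18.4, 17.2 and 15.2 CPM in KO treadmill and 23.5, 16.1 and 16.0 CPM in KO sedentary muscle. In WT it had 32.3, 21.9 and 19.8 CPM with treadmill and 39.7, 33.4 and 22.1 CPM when sedentary, which overlaps the KO range. Its log2 fold change of -0.67 (SE 0.15, adjusted p = 0.0649) missed the threshold; with lane as a term it was -0.44 and passed (adjusted p = 0.0299). It also passed without WT sedentary replicate 3 (-0.77, adjusted p = 0.0170) and without WT treadmill replicate 3 (-0.74, adjusted p = 0.0490), each the lowest of its group. The highest value of each WT group, 32.3 and 39.7 CPM, was that of lane 8 and of lane 7. Without the libraries of lanes 7 and 8 together Mid1ip1 did not pass. Rxra, the partner receptor of LXR, was at -0.18 (adjusted p = 0.176).

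Triglyceride synthesis genes (10 measured, median -0.01) held Agpat1 at -0.15 (adjusted p = 0.211) and Agpat2 at 0.45 (adjusted p = 0.467). Agpat2 had 19.4 CPM in KO sedentary replicate 2 and 5.39 to 10.9 CPM elsewhere, and was at 0.13 without that library. Elongation and desaturation partners (11 of 16 measured, median 0.03) held Hsd17b12, the ketoacyl reductase of elongation, at 0.25 (0.11 without KO sedentary replicate 2) and Acacb, the muscle-type carboxylase, at -0.18. Cholesterol synthesis genes, the SREBP-2 branch, had a median of 0.04 over 21 genes, with Sc5d at 0.16 and Stard4 at 0.23. Mitochondrial fatty acid synthesis, a separate pathway that makes lipoic acid, had a median of -0.03 over 9 genes, with Mcat at -0.13 and Mecr at -0.09. Among the marker lists, Pparg and Plin4 had the smallest p of the adipocyte list (0.28 and -0.21, or 0.17 and -0.19 without KO sedentary replicate 2) and Ckm and Tnnt3 of the muscle fibre list (-0.18 and 0.09); none passed. Pmp22, of the Schwann cell list, was at 0.23 and did not pass with all libraries. It passed without the libraries of lanes 7 and 8 (0.34, adjusted p = 0.0146) and without that of lane 7 alone (0.30, adjusted p = 0.0479). In KO sedentary replicate 2 the lists of cholesterol synthesis, mitochondrial fatty acid synthesis, Schwann cell and muscle fibre genes had median differences from the other libraries of 0.11, -0.033, 0.014 and -0.0017 on the log2 scale. Those of NADPH and citrate supply and of elongation partners were 0.39 and 0.16, and those of the regulators and of triglyceride synthesis were -0.047 and -0.020.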

How the data were processed

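Libraries of muscle RNA from 12 samples were prepared with the TruSeq RNA kit v2 from Illumina, per the labels' protocols. Among the tools in the submitters' processing notes are featureCounts 1.4.6-p4, STAR 2.4.1d and bcl2fastq 1.8.4, on GRCm38. For the strand setting, the annotation release and multimapping, the sources used here give nothing. In the deposited table the authors gave raw counts per Ensembl gene, 1 column per sample, on which all values rest. Their RPKM table was not used here. Groups, replicate numbers and lanes come from the labels. Of 47729 genes, 47224 matched a symbol.

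The count model was that of edgeR 4.0.16 (R 4.3.3), with TMM scaling, filterByExpr (minimum count 10, minimum total 15; 14194 genes and 99.9% of counts kept), 1 coefficient per group, 8 residual degrees of freedom and the quasi-likelihood test, in 7 comparisons with Benjamini-Hochberg adjustment over all genes and a threshold of 0.05. The common biological coefficient of variation was 0.112. The averaged genotype test was also run on simulated counts. These held no high library and no lane effect, so the run covers neither those features nor the other comparisons. Log2 CPM used a prior count of 2. DESeq2 1.42.0 and limma 3.58.1 (voom) served as alternatives. Correlations with marker sums used 100000 permutations (scipy 1.17.1), two-sided, over 20 relations. Promoters and motif shares come from RefSeq on GRCm38.p6, exon lengths and shared 50-base stretches from GENCODE. Depth of 21232040 to 29990968 counts per library sets the counting error.

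The genes, lists and tests were chosen with earlier results of these data known. Named genes are the 10, Nfe2l2, the genes of each list past the threshold or its 2 with the smallest p in the averaged genotype comparison, and the 5 genes most like Fasn, Scd1 and Scd2 by Pearson r (some results under this rule are not reported here); others were chosen after their values were seen, among them Slc25a1, Agpat2, Pck1, Adrb3, Cidea, Adipoq, Plin1 and Lep in KO sedentary replicate 2. Nqo1, also in this rule, was 9.90 ± 0.44 CPM in KO and 35.5 ± 6.2 CPM in WT libraries (SD, n = 6 each). Same-numbered libraries deviated together between the WT groups (correlations 0.54, 0.30 and 0.26, above 0.1 in each pair). In WT, number 1 ran on lanes 7 and 8, number 2 on lane 3 and number 3 on lane 4, so pairing and lane cannot be told apart. The fit reported has no block, and the block is an alternative. Every other pair of groups had at least 1 value below 0.1. The alternatives were 2 other scalings, no filter, other tools, lane as a term, libraries left out, a replicate block, fits to the compared groups and adipocyte covariates.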

Additional observations from a re-analysis of the deposited data

Results flagged for a closer look

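In the 6 KO libraries, 5 of the 10 genes had a highest value far from the others, and in each it was that of KO sedentary replicate 2: Fasn with 142 CPM, Acaca with 20.7 CPM, Acly with 68.9 CPM, Scd1 with 1167 CPM and Elovl6 with 13.4 CPM. The gap to the next library took 77.5% of the range for Fasn, 79.9% for Acaca, 86.0% for Acly, 68.9% for Scd1 and 82.8% for Elovl6, where Dixon's limit for 6 values is 62.5%. The 10 genes were checked in the 6 KO and the 6 WT libraries, 20 groups in all, of which chance flags about 1 in 20, and the 5 flags share 1 library and are not independent. Thrsp was also highest in KO sedentary replicate 2, but its gap stayed below the limit and it was not flagged. No WT group was marked.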

How the results depend on the processing

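The count of members past the threshold was 0 in all 7 comparisons and stayed 0 under each alternative but those without the filter on low counts. There 7 members passed for KO against WT in sedentary muscle (1.23% of all genes did), 6 averaged over exercise (2.15%), 7 for treadmill in KO (0.528%), 4 for treadmill averaged over genotype (0.345%) and 5 for the interaction (0.258%); with KO sedentary replicate 2 also left out, 1 passed averaged over exercise and 0 in the others. The unfiltered fit held 26350 genes and its prior degrees of freedom were infinite, against 6.149 with the filter. No alternative moved the median of all genes by over 0.1. Depth limits Elovl6 most, with as few as 28 counts.

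With the replicate number as a block, no call changed, the smallest adjusted p of a member was 0.0905, and Thrsp for KO against WT with treadmill turned to -0.011. Leaving out each library in turn turned the sign of 18 of the 45 log2 fold changes recomputed: all 10 members in the genotype comparisons and for treadmill in KO, and the members named for treadmill in WT or averaged over genotype. For KO against WT in sedentary muscle they ran from -0.043 to 1.41 for Fasn, -0.12 to 0.80 for Acaca, -0.098 to 0.21 for Scd2 and -0.041 to 0.90 for Thrsp. With treadmill they ran from -0.029 to 0.24 for Acaca, -0.015 to 0.33 for Acly, -0.062 to 0.048 for Elovl5, -0.28 to 0.22 for Thrsp and -0.057 to 0.0066 for Mlxipl. Averaged over exercise they ran from -0.0021 to 0.46 for Acaca and -0.15 to 0.027 for Scd2. For treadmill in KO muscle they ran from -1.25 to 0.21 for Fasn, -0.78 to 0.14 for Acaca, -1.17 to 0.073 for Acly, -0.82 to 0.28 for Scd1, -1.64 to 0.092 for Elovl6, -0.13 to 0.028 for Srebf1 and -0.76 to 0.24 for Thrsp.

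Other reversals follow, and the cause was not tested. Without KO sedentary replicate 2 and the libraries of lanes 7 and 8 together (chosen after seeing the data), treadmill in KO gave Fasn 0.21, Acaca 0.14, Acly 0.070, Scd1 0.27, Elovl6 0.083 and Thrsp 0.23; KO against WT gave Acaca -0.16, Scd2 -0.045, Thrsp -0.061 and Mlxipl 0.077 in sedentary muscle, Mlxipl 0.013 with treadmill, and Thrsp -0.0091 and Mlxipl 0.045 averaged. With the adipocyte sum as a covariate, treadmill in KO gave Scd1 0.077 and Thrsp 0.032, Scd2 was -0.037 for KO against WT in sedentary muscle, and Thrsp for treadmill in WT was -0.17, or -0.097 with the 4 defining markers. Limma-voom gave Scd2 -0.0035 in sedentary muscle and Thrsp -0.0071 with treadmill. Lane as a term gave Mlxipl 0.031 with treadmill, and Mlxipl 0.0070 and Scd2 0.0030 averaged; without lanes 7 and 8, Mlxipl was 0.013 with treadmill and 0.0058 averaged.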

Other observations

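Genes outside the lists were high in KO sedentary replicate 2 as well, chosen after their values were seen. Klb, the FGF21 co-receptor, had 1.43 CPM there against a mean of 0.271 CPM in the other 11 libraries, and Hcar1, the lactate receptor of adipocytes, had 2.27 CPM against 0.525 CPM. Tkt, transketolase of the pentose phosphate pathway, had 46.9 CPM against 16.8 CPM, and Angptl4, a lipoprotein lipase inhibitor, had 15.6 CPM against 5.84 CPM. In that library 94 genes lay more than 1 log2 unit above the mean of the others and 39 as far below, against 14 to 136 above and 42 to 158 below in the other libraries.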
